A study of Mus musculus with 4 samples.

Results

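The cells described here are Klk6-positive mature oligodendrocytes of the mouse hippocampus and cortex. They were chosen from the UMI counts (unique molecular identifiers, each standing for a captured transcript) of single barcodes. A barcode was kept when it had 300 genes or more and no more than 20% of its UMIs from mitochondrial genes, and was called a mature oligodendrocyte when it held a UMI of at least 5 of Mog, Mag, Ermn, Mobp, Cldn11, Ugt8a, Aspa and Mal. It could hold a UMI of at most 2 of 7 markers of microglia, astrocytes and endothelium (P2ry12, Cx3cr1, Csf1r, Aqp4, Gja1, Cldn5 and Flt1). Klk6-positive cells had at least 2 Klk6 UMIs, and cells with none are called Klk6-0. The rule found 377 Klk6-positive cells among 13581 mature oligodendrocytes (2.78%), from 44912 barcodes that passed the filter and 45315 deposited. The 16 genes of the rule describe how the cells were chosen and are not results.

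The study compared DOCA-salt with sham treatment in hippocampus and in sensory cortex of wild-type mice by droplet single-cell RNA sequencing of the 3′ end of transcripts, and each of the 4 groups is 1 library. The term DOCA-salt is commonly used for deoxycorticosterone acetate given with salt, a mineralocorticoid model of hypertension. According to the labels a group had 3 mice, and pooling is not stated; age, sex, dose and duration are not given in the sources used here. Groups were taken from titles. For 2 libraries, those titled cortex DOCA-salt and hippocampus sham, the labels also hold a treatment entry that names the opposite treatment, so that every direction of treatment below rests on the titles. With 1 library per group there is no replicate check on treatment or tissue, and the intervals given for them cover counting error only.

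Oligodendrocytes wrap axons in myelin, and mature ones occur in several transcriptional states. Klk6 encodes kallikrein-related peptidase 6, a secreted serine protease that is known from oligodendrocytes of white matter and spinal cord, where it marks a mature state that also carries Anln and Hopx. Ptgds, which encodes prostaglandin D synthase, leads another mature state, which is usual in grey matter. Klk6 lies on chromosome 7 at 43824499 to 43832030 of GRCm38, on the plus strand.

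The label was checked against markers that the rule did not use. Anln, which encodes anillin, a scaffold of septin filaments in myelin, had a UMI in 91.7%, 98.1%, 96.8% and 96.2% of Klk6-positive cells in hippocampus after DOCA-salt and sham and in cortex after DOCA-salt and sham. In Klk6-0 cells, which were shallower, the shares were 57.0%, 64.8%, 54.6% and 58.5%. At an equal depth of 2000 UMIs per cell they were 69.0%, 79.6%, 64.2% and 74.8% in Klk6-positive and 32.9%, 39.4%, 31.8% and 36.4% in Klk6-0 cells. Mbp, which encodes myelin basic protein, had a UMI in 100% of Klk6-positive cells in each library and in 98.2% to 99.0% of Klk6-0 cells, which does not separate the states. Klk6 RNA was rare in the 3 other cell types that were examined. Of 1269 microglia, 17 held a Klk6 UMI (1.34%, exact binomial 95% interval 0.782 to 2.14), as did 15 of 1388 astrocytes (1.08%) and 2 of 374 endothelial cells (0.535%). No cell of these 3 types held 2 Klk6 UMIs, which allows shares of up to 0.236%, 0.216% and 0.802%. Their median depths were 3468, 2910 and 2920 UMIs against 5943 in mature oligodendrocytes, of which 6.95% held a Klk6 UMI. The lone UMI in other cells is the background against which 1 Klk6 UMI in an oligodendrocyte has to be read. No such background was seen at 2 UMIs in these 3 types.

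At the edge of the rule, 567 mature oligodendrocytes had 1 Klk6 UMI and stayed outside, while 123 Klk6-positive cells had exactly 2. A further 140 had 6 or more, and the highest had 67. Klk6-positive cells held 37.8%, 51.7%, 48.9% and 48.7% of all Klk6 UMIs of the 4 libraries. They were deeper than Klk6-0 cells of the same library, with median totals of 8888, 8768, 7745 and 7597 UMIs against 6154, 6165, 5297 and 5588. A rule that asks for 2 UMIs of a gene finds deeper cells more easily, so differences between both states were also computed at equal depth. All 8 oligodendrocyte markers were present in 95.8% to 98.9% of Klk6-positive cells and in 77.2% to 80.2% of Klk6-0 cells. Scrublet called 1, 0, 0 and 1 of the Klk6-positive cells doublets, and these cells were kept. Between 94 and 105 barcodes were shared by any pair of libraries, and no shared barcode was Klk6-positive in both.

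Klk6-positive cells took a larger share of mature oligodendrocytes in cortex than in hippocampus, and about the same share in both treatments. The shares were 2.14% (72 of 3368 cells, exact binomial 95% interval 1.68 to 2.68) in hippocampus DOCA-salt and 2.14% (105 of 4912, 1.75 to 2.58) in hippocampus sham. In cortex they were 3.73% (95 of 2548, 3.03 to 4.54) after DOCA-salt and 3.81% (105 of 2753, 3.13 to 4.60) after sham. The cortex share was thus 1.78 times the hippocampus share in sham libraries (95% interval 1.35 to 2.36) and 1.74 times in DOCA-salt libraries (1.27 to 2.40). DOCA-salt over sham stood at 1.0 in hippocampus (0.730 to 1.36) and 0.978 in cortex (0.733 to 1.30), and both intervals include 1. These intervals allow a change of the share with treatment by about as much as their bounds, in either direction.

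Cells differed in depth between tissues, so each mature oligodendrocyte was also thinned to 2000 UMIs before its Klk6 UMIs were counted. This left out 187 to 310 shallower mature oligodendrocytes per library. The filter and the marker conditions of the rule stayed on full counts. The shares fell to 0.654% and 0.559% in hippocampus and to 2.20% and 1.76% in cortex (DOCA-salt and sham). Cortex over hippocampus was then 3.14 in sham (1.90 to 5.31) and 3.37 in DOCA-salt libraries (1.98 to 5.96). With Klk6 counted at this equal depth, the order of the tissues was the same. Among the cells chosen, the median number of Klk6 UMIs was 6 and 4 in cortex (DOCA-salt and sham) and 3 and 3 in hippocampus. Cells with 6 or more Klk6 UMIs numbered 48 and 42 in cortex and 16 and 34 in hippocampus. Among cells with none of the 7 other-cell markers the ratio of cortex to hippocampus was 1.16 in the DOCA-salt libraries (0.520 to 2.58) and 1.94 in the sham libraries (1.01 to 3.73), on 14 to 21 Klk6-positive cells per library.

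**Figure D1:**
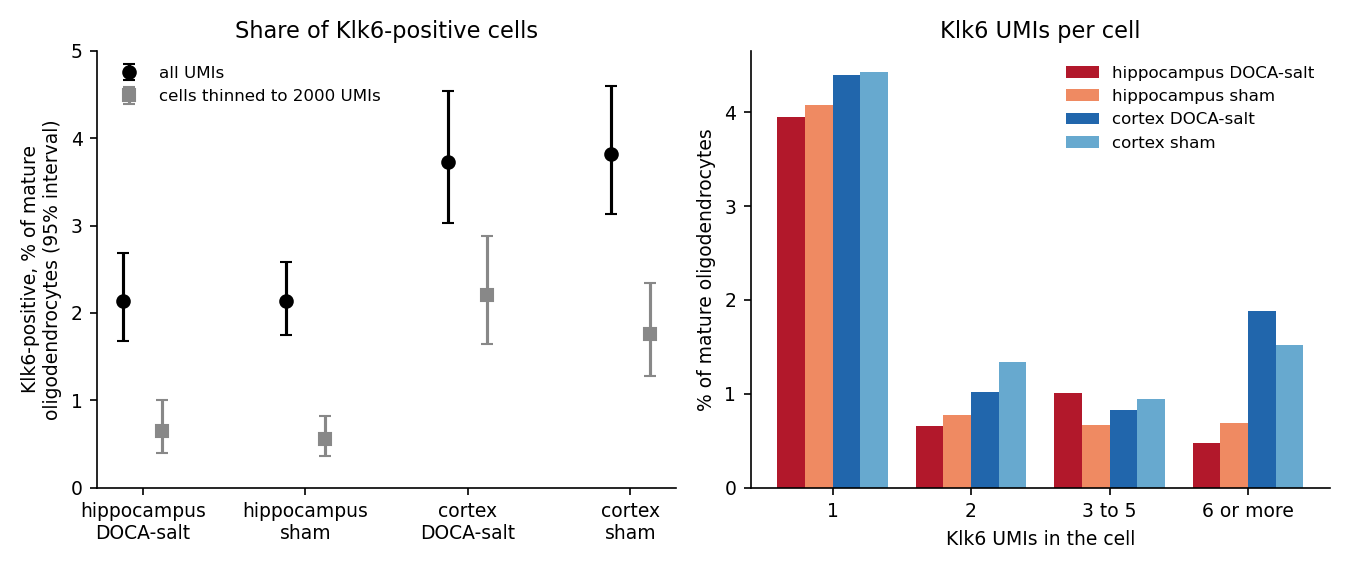
Left, the share of Klk6-positive cells among mature oligodendrocytes (percent, y axis) in each of the 4 libraries, with exact binomial 95% intervals, from all UMIs (black circles) and after thinning each cell to 2000 UMIs (grey squares). Right, the percent of mature oligodendrocytes with 1, 2, 3 to 5 and 6 or more Klk6 UMIs in each library. Both cortex libraries sit above both hippocampus libraries in share, at 3.73% and 3.81% against 2.14% and 2.14%, and the gap is widest for cells with 6 or more Klk6 UMIs.

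Klk6-positive and Klk6-0 cells were then compared across the 4 libraries. UMIs were summed per library and state and tested with edgeR's quasi-likelihood test with library as a block, so that each library gave its own difference. Of 13373 genes tested outside the rule, 1095 (8.19%) were higher and 1494 (11.2%) lower in Klk6-positive cells at a Benjamini-Hochberg adjusted p under 0.05. Summed markers of blood cells, astrocytes, mural cells, choroid plexus and oligodendrocyte precursors were lower in Klk6-positive cells in 4 of 4 libraries, those of microglia and endothelium in 3 of 4, and those of neurons were higher in 4 of 4. The part of this RNA in the calls was not tested on its own. Summed blood markers ran from 2386 to 12238 CPM (each library and state scaled to the same total, in the usual CPM unit) in Klk6-0 cells and from 261 to 758 CPM in Klk6-positive cells. Astrocyte markers ran from 872 to 3382 CPM against 434 to 1771 CPM. With all 8 oligodendrocyte markers asked of both states the blood range of Klk6-0 cells shrank to 278 to 1354 CPM and the astrocyte range to 477 to 1900 CPM. This stricter comparison, chosen after the data were seen, called 852 genes (6.85%) higher and 837 (6.73%) lower of 12429, and 790 of the higher and 693 of the lower calls were shared with the first. Where a gene named below as lower lost its call in it, or could not be tested there, this is stated. Counts of gene lists below are to be read against 8.19% higher and 11.2% lower over all genes, and against 6.85% and 6.73% with all 8 markers.

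The homeobox gene Nkx2-9 rose most. It stood at 36.7 and 61.0 CPM in Klk6-positive cells of hippocampus (DOCA-salt and sham) and at 55.1 and 54.4 CPM in cortex, against 0.841, 1.41, 1.13 and 0.824 CPM in Klk6-0 cells. Its values did not overlap between states. The log2 fold change was 5.60 ± 0.25 (4 libraries, edgeR adjusted p = 5.84e-46). Here and below the error after ± is the absolute estimate divided by the square root of edgeR's F statistic. It does not measure the spread between libraries. Nkx2-9 lies on chromosome 12 at 56611389 to 56613284 and encodes a transcription factor of the NK family. In microglia the gene stood at 0.219 CPM, and in astrocytes and endothelial cells no UMI was found. A second homeobox gene, Barx2 (chromosome 9, 31846044 to 31913462), was higher by 3.98 ± 0.41 on the log2 scale. Barx2 reached 25.6 and 23 CPM in Klk6-positive cells of cortex and 4.59 and 7.11 CPM in those of hippocampus, and stayed under 1 CPM in Klk6-0 cells of all 4 libraries. The non-coding RNA Haglr, transcribed at the Hoxd cluster, was higher by 3.60 ± 0.39. Its mean was 14.4 CPM against 1.18 CPM, and reads of genes on its opposite strand cannot be told apart, as the counting strand is not given in the sources used here. Hopx, an atypical homeodomain gene that marks the known Klk6 state, rose by 1.88 ± 0.11 from a mean of 31.8 to 114 CPM.

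S100b, which encodes a calcium-binding protein, was also among the 15 genes with the largest rises. Klk6-positive cells held 644 and 797 CPM in hippocampus (DOCA-salt and sham) and 1101 and 1152 CPM in cortex, against 70.1 to 95.8 CPM in Klk6-0 cells. The log2 fold change was 3.52 ± 0.06 (edgeR adjusted p = 7.47e-96). S100b is also an astrocyte gene and stood at 361 CPM in the astrocytes of these libraries, which is below the level in Klk6-positive cells of each library. The phosphodiesterase gene Enpp6, known as a marker of newly formed oligodendrocytes, was at 292 to 372 CPM in Klk6-positive and at 47.2 to 60.8 CPM in Klk6-0 cells (log2 fold change 2.67 ± 0.08). Of 11 genes of precursors and newly formed cells tested (8.19% higher and 11.2% lower over all genes), Enpp6 was higher and 7 were lower, among them the immature oligodendrocyte receptor gene Gpr17 at 1.06 against 5.12 CPM, whose call was lost with all 8 markers. There 8 of the genes could be tested, and 1 was higher and 3 lower. Pdgfra, Vcan and Bmp4 had no UMI in any Klk6-positive cell.

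The other genes with the largest rises include enzymes and a transporter. St8sia5, a sialyltransferase gene of ganglioside synthesis, was higher by 3.47 ± 0.37, and B3galnt1, a glycosyltransferase gene of globoside synthesis, by 2.40 ± 0.19. In Klk6-positive cells St8sia5 stood at 9.17 and 13.2 CPM in hippocampus and at 16.7 and 23 CPM in cortex (DOCA-salt and sham). It stood at 22.4 CPM in the astrocytes of these libraries, above all of these levels but that of cortex sham. The part of astrocyte RNA in the rise of St8sia5 was not tested. The sodium-phosphate cotransporter gene Slc34a3 was higher by 3.19 ± 0.32, with 13.2 to 33.3 CPM in Klk6-positive and 1.24 to 3.03 CPM in Klk6-0 cells. The aminoacylase gene Acy3 was higher by 2.81 ± 0.19, and Rab37, a small GTPase gene of vesicle traffic, by 2.95 ± 0.29. Aven, a regulator of cell death, was at 141 to 206 CPM against 21.9 to 35.9 CPM. Fibin, Begain and Serpind1 (heparin cofactor II) completed the list at log2 fold changes of 3.63, 2.51 and 2.21. Uchl1, a deubiquitinase gene best known from neurons, rose by 2.27 ± 0.15. All 15 genes were higher in 4 of 4 libraries. All 15 were also called higher with all 8 markers, against Klk6-0 cells drawn to the same UMI totals, and after thinning each cell to 2000 UMIs with the states kept. When the Klk6 rule itself was applied to thinned cells, Begain and Serpind1 were no longer called and the other 13 were. Among cells with none of the other-cell markers, 11 were called, while Haglr, St8sia5 and Rab37 were not (edgeR adjusted p of 0.149, 0.248 and 0.178) and Fibin could not be tested.

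The genes that earlier work ties to the Klk6 state moved together. All 4 of the list besides Klk6 were higher, with a median log2 fold change of 1.68 against -0.07 over all genes tested. Anln stood at 667, 792, 701 and 819 CPM in Klk6-positive and at 242, 322, 226 and 281 CPM in Klk6-0 cells (hippocampus DOCA-salt and sham, cortex DOCA-salt and sham; log2 fold change 1.49 ± 0.06). Anxa5, a calcium-dependent phospholipid-binding annexin, was at 131 to 249 CPM against 52.8 to 57.8 CPM (1.79 ± 0.09). Mgst3, a microsomal glutathione transferase, was higher by 1.57 ± 0.09. Among annexins and S100 proteins, 6 of 16 tested were higher and 5 lower, against 8.19% and 11.2% over all genes. Beside S100b and Anxa5 the higher ones were S100a6 (0.89), S100a16 (0.66), S100a13 (0.47) and S100a1 (0.32), while none of the list was lower with all 8 markers. Tubb3, a tubulin gene used as a neuron marker, was higher by 1.64 ± 0.07, from a mean of 98.2 to 303 CPM. The other neuron markers of the list were at or near 0 in Klk6-positive cells, with Slc17a7, Gad1 and Gad2 at no UMI and Snap25 at 1.52 CPM, while the summed list was higher in 4 of 4 libraries through Tubb3.

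Ptgds, the leading gene of the other mature state, was lower. It stood at 11289, 9832, 10488 and 7783 CPM in Klk6-positive cells (hippocampus DOCA-salt and sham, cortex DOCA-salt and sham) against 38511 to 45683 CPM in Klk6-0 cells. The ranges were far apart, and the log2 fold change was -2.09 ± 0.05 (edgeR adjusted p = 9.71e-76). Il33, which encodes an alarmin cytokine of the nucleus, followed with 398, 263, 317 and 143 CPM against 775 to 952 CPM (-1.64 ± 0.07). The Ptgds state did not fall as a whole. Apod, a lipid-binding apolipoprotein gene that is listed with it, rose by 1.79 ± 0.05 from a mean of 2074 to 7101 CPM. Car2 (carbonic anhydrase 2) rose by 0.28 ± 0.05, though it stood at -0.02 when the Klk6 threshold was applied to thinned cells. Of the 5 genes of the Ptgds state, 2 were higher and 3 lower. The third lower gene was Grm3 at 163 against 191 CPM, whose call was lost with all 8 markers. Cells with a Ptgds level above the Klk6-0 median of 37242 CPM made up 4.17%, 7.62%, 7.37% and 3.81% of Klk6-positive cells, against 48.5%, 45.4%, 58.4% and 52.4% of Klk6-0 cells. Among the 140 cells with 6 or more Klk6 UMIs, 1 was above that level.

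Of the 10 genes that fell most by the naming rule, the calls of 6 were not found with all 8 markers. These were Alas2 (a haem synthesis gene of red cell precursors, not testable there), Lcn2, Ngp, Reln, Ndnf and Meg3, which are known from blood cells or neurons. Lcn2 and Ndnf also stood at 75.1 and 63.1 CPM in the endothelial cells of these libraries. Ngp was 40.7 CPM in Klk6-0 cells of the first comparison and its log2 fold change went from -4.08 to 0.46 (not called). Gfra1, Synpr, Mpped2 and Rtn1 remained lower there. Gfra1, which encodes the GDNF family receptor alpha 1, was at 0, 5.08, 1.28 and 2.42 CPM in Klk6-positive cells against 16.8 to 24.2 CPM (log2 fold change -2.96 ± 0.37, and -2.88 with all 8 markers). Synpr, a synaptophysin-like vesicle protein gene, was at 1.28 to 12.2 CPM against 34.9 to 47.8 CPM (-2.77 ± 0.26, and -3.06). Mpped2, a metallophosphoesterase gene, was lower by 2.74 on the log2 scale, and by 2.75 with all 8 markers. Rtn1, a reticulon gene, fell by 3.00, and by 1.26 with all 8 markers. Rtn1 stood at 91.4 CPM in microglia and 64.7 CPM in astrocytes, and Gfra1 at 44.8 CPM in astrocytes. Synpr and Mpped2 stood at no more than 3.71 and 17.8 CPM in microglia, astrocytes and endothelial cells. The part of RNA of these cells in the falls was not tested.

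**Figure D2:**
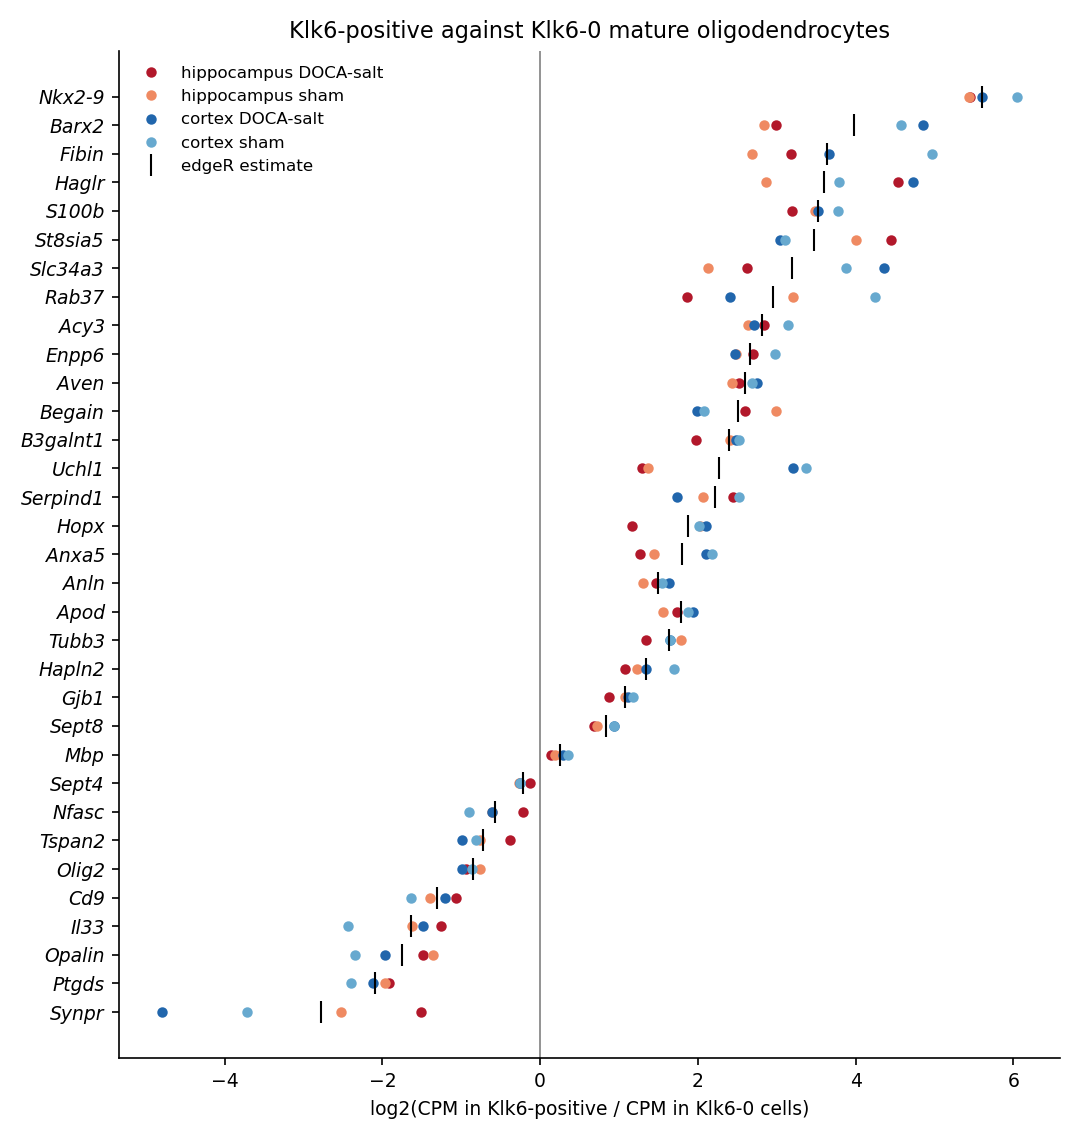
The log2 ratio of CPM in Klk6-positive to CPM in Klk6-0 cells (x axis) for 33 genes in each of the 4 libraries (coloured points), with the edgeR estimate over the libraries (black tick). Nkx2-9 lies at 5.60, S100b at 3.52, Apod at 1.79 and Ptgds at -2.09, and the points of a gene lie on 1 side of 0 in all 4 libraries.

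Of 20 myelin genes tested, 10 were higher, 4 lower and 6 not called, against 8.19% higher and 11.2% lower over all genes. With all 8 markers 8 were higher and 6 lower, at a median log2 fold change of 0.05. Gjb1, a connexin gene of oligodendrocyte gap junctions, rose from a mean of 379 to 790 CPM (log2 fold change 1.07 ± 0.06). Omg, the oligodendrocyte myelin glycoprotein gene, was higher by 0.83 ± 0.06. Mbp moved little, by 0.25 ± 0.05, and its call was lost with all 8 markers. Lower were Opalin, a membrane glycoprotein gene of mature oligodendrocytes (-1.75 ± 0.07), and the tetraspanin genes Cd9 (-1.31 ± 0.06) and Tspan2 (-0.73 ± 0.06). Opalin stood at 634, 613, 428 and 323 CPM in Klk6-positive cells of hippocampus DOCA-salt and sham and cortex DOCA-salt and sham, against 1577 to 1771 CPM. Among anillin and the septins, Sept8 went up with Anln, from 579 to 1022 CPM, while Sept4 fell slightly, from 3399 to 2913 CPM. Sept4 was not called against Klk6-0 cells drawn to the same UMI totals, where its log2 fold change was -0.04.

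Among genes of the node of Ranvier, Hapln2, a link protein gene of the nodal matrix, was at 870 to 975 CPM against 276 to 463 CPM (log2 fold change 1.35 ± 0.06), whereas Nfasc, which encodes the paranodal adhesion protein neurofascin, fell from a mean of 282 to 188 CPM (-0.58 ± 0.07). Of the 8 genes of that list 2 were higher and 3 lower, and with all 8 markers only Hapln2 was higher and Nfasc lower. Of 17 genes of potassium channels and ion pumps, 4 were higher and 8 lower at a median log2 fold change of -0.72, and with all 8 markers 1 was higher and 4 lower of 16. Hcn2, a pacemaker channel gene found in myelin, was at 278 to 417 CPM against 91.1 to 196 CPM (1.39 ± 0.07). Kcna2, a potassium channel subunit gene, fell by 1.20 ± 0.22 on the log2 scale. Among iron genes the transferrin gene Trf rose from 5582 to 10141 CPM and the ferritin gene Fth1 from 21798 to 31880 CPM, and the other 9 of 11 were not called.

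Genes of cholesterol synthesis were higher as a list. Of 18 tested, 11 were higher and 1 lower at a median log2 fold change of 0.43, against 8.19% and 11.2% over all genes and a median of -0.07. With all 8 markers the counts were again 11 and 1. Sqle, the squalene epoxidase gene, rose by 0.80 ± 0.12, Fdps by 0.59 ± 0.07 and Hmgcs1 by 0.54 ± 0.08. The lower gene was Insig1 at -0.39 ± 0.09, which encodes a brake on the pathway. At equal depth of 2000 UMIs per cell, 4 of the 18 were called higher, at a median of 0.39. Of 16 genes of fatty acid and sphingolipid synthesis, 8 were higher and 2 lower. Elovl5 and Elovl1, which lengthen fatty acid chains, were higher by 0.84 ± 0.10 and 0.61 ± 0.06, and the desaturase gene Fads1 was lower by 1.28 on the log2 scale.

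Among lineage transcription factors, Olig2 fell from a mean of 171 to 93.9 CPM (log2 fold change -0.85 ± 0.09), and Zfp536 and Zfp488 fell by 0.35 and 1.40. Nkx2-2 rose by 0.50 ± 0.11. Of 15 factors tested, 3 were higher and 4 lower, and 8 were not called, against 8.19% and 11.2% over all genes. With all 8 markers 2 were higher and 5 lower. Immediate early genes were lower as a list, with 16 of 20 lower and none higher at a median of -0.78, and 11 lower and none higher with all 8 markers (6.73% lower over all genes). Fos stood at 651, 416, 691 and 279 CPM in Klk6-positive cells of hippocampus DOCA-salt and sham and cortex DOCA-salt and sham, against 1343, 589, 1754 and 388 CPM in Klk6-0 cells. Btg2 fell by 1.20, Nr4a1 by 1.16, Junb by 0.91 and Jun by 0.68 on the log2 scale. Of 15 heat shock genes, 10 were lower and 1 higher, and with all 8 markers 7 and 1. Hspa1a, an inducible chaperone gene, fell from a mean of 250 to 120 CPM, and its near-identical neighbour Hspa1b, whose reads can be hard to tell apart, from 28.9 to 12.7 CPM. The co-chaperone gene Bag3 was the higher one, at 41.4 against 23.6 CPM.

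Of 18 genes induced by corticosteroid receptors, 9 were lower and 1 higher, against 11.2% and 8.19% over all genes, and with all 8 markers 8 and 1, against 6.73% and 6.85%. Sgk1, a kinase gene induced by corticosteroids, was lower by 0.28 ± 0.06 on the log2 scale and in 3 of 4 libraries (not called against Klk6-0 cells drawn to the same UMI totals, at -0.07), Plin4 by 0.98 ± 0.21, and the metallothionein genes Mt1 and Mt2 by 0.75 and 0.79. Errfi1 was higher by 0.43 ± 0.09, but stood at -0.23 when the Klk6 threshold was applied to thinned cells. Of 14 disease-associated oligodendrocyte genes, 3 were higher and 7 lower at a median log2 fold change of -0.37, and with all 8 markers 3 were higher and 3 lower of 13 at a median of 0.01. Serpina3n, an acute-phase protease inhibitor gene, was higher in Klk6-positive cells of all 4 libraries, at 115, 12.2, 187 and 14.5 CPM against 54.9, 4.44, 58.0 and 4.81 CPM (log2 fold change 1.44 ± 0.13). C4b (complement) and Sgk3 were higher by 0.83 and 0.80, but C4b was lower in 2 libraries, and without the cortex DOCA-salt library its log2 fold change was -0.26, against up to 1.09 without another library. The lysosomal membrane gene Cd63 and the stress gene Gadd45b fell by 0.85 and 0.84.

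**Figure D3:**
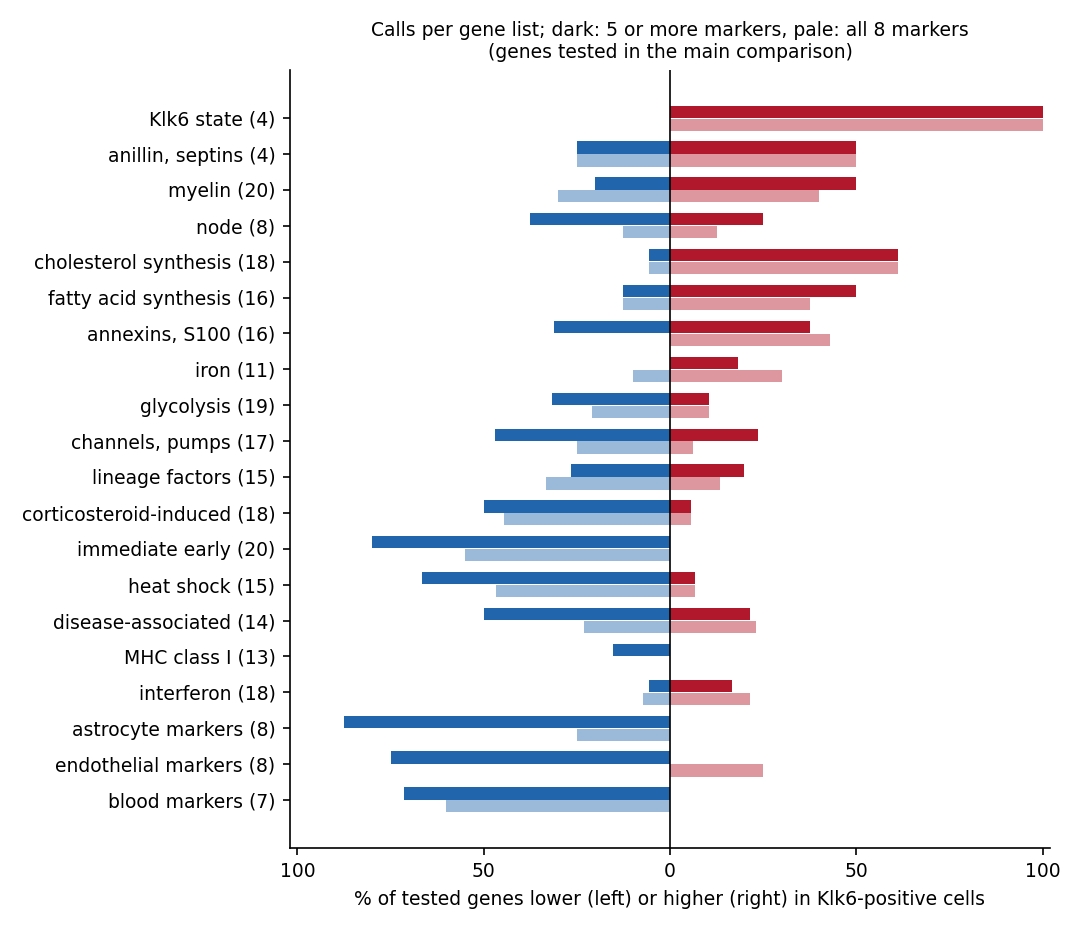
The percent of tested genes of each list called lower (left, blue) or higher (right, red) in Klk6-positive cells by edgeR, with the number tested in brackets. Dark bars are the comparison of all mature oligodendrocytes and pale bars that of cells with all 8 markers; the blue bars for astrocyte and endothelial markers shrink or vanish in the pale comparison, while the lists of cholesterol synthesis (11 of 18 higher) and immediate early genes (16 and 11 of 20 lower) keep their side.

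Levels were also set against the number of Klk6 UMIs. Mature oligodendrocytes were split into cells with 0, 1, 2, 3 to 5 and 6 or more Klk6 UMIs, and the mean over libraries of the summed level was taken. S100b stood at 80.3, 220, 487, 770 and 1292 CPM in these 5 bins, and Nkx2-9 at 1.05, 9.27, 16.8, 37.3 and 85.7 CPM. Apod went from 2074 over 3508, 5463 and 6388 to 8421 CPM. Ptgds went the other way, from 41932 over 28493, 14705 and 11429 to 5047 CPM, and Il33 from 855 to 143 CPM. Of the 15 genes with the largest rises, 9 were higher on average at each of the 4 steps, though single libraries did not always follow: the hippocampus DOCA-salt library had no Nkx2-9 UMI in its cells with 2 Klk6 UMIs. Of the 10 genes that fell most, 3 were lower on average at each step. Anln was not higher at each step: it went from 268 to 837 CPM at 3 to 5 UMIs and stood at 756 CPM at 6 or more. In cells with 1 Klk6 UMI, which the rule leaves out, S100b, Nkx2-9, Apod, Ptgds and Il33 lay between the bins beside it, as did Hopx at 43.7 CPM against 31.8 and 47.2 CPM. Fibin did not, at 2.91 CPM against 0.842 and 0 CPM. Their Ptgds level was above that of each bin with more Klk6 UMIs. The bins share libraries and their cells differ in depth, and the thinnest held 16 cells, so the steps are described without a test.

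**Figure D4:**
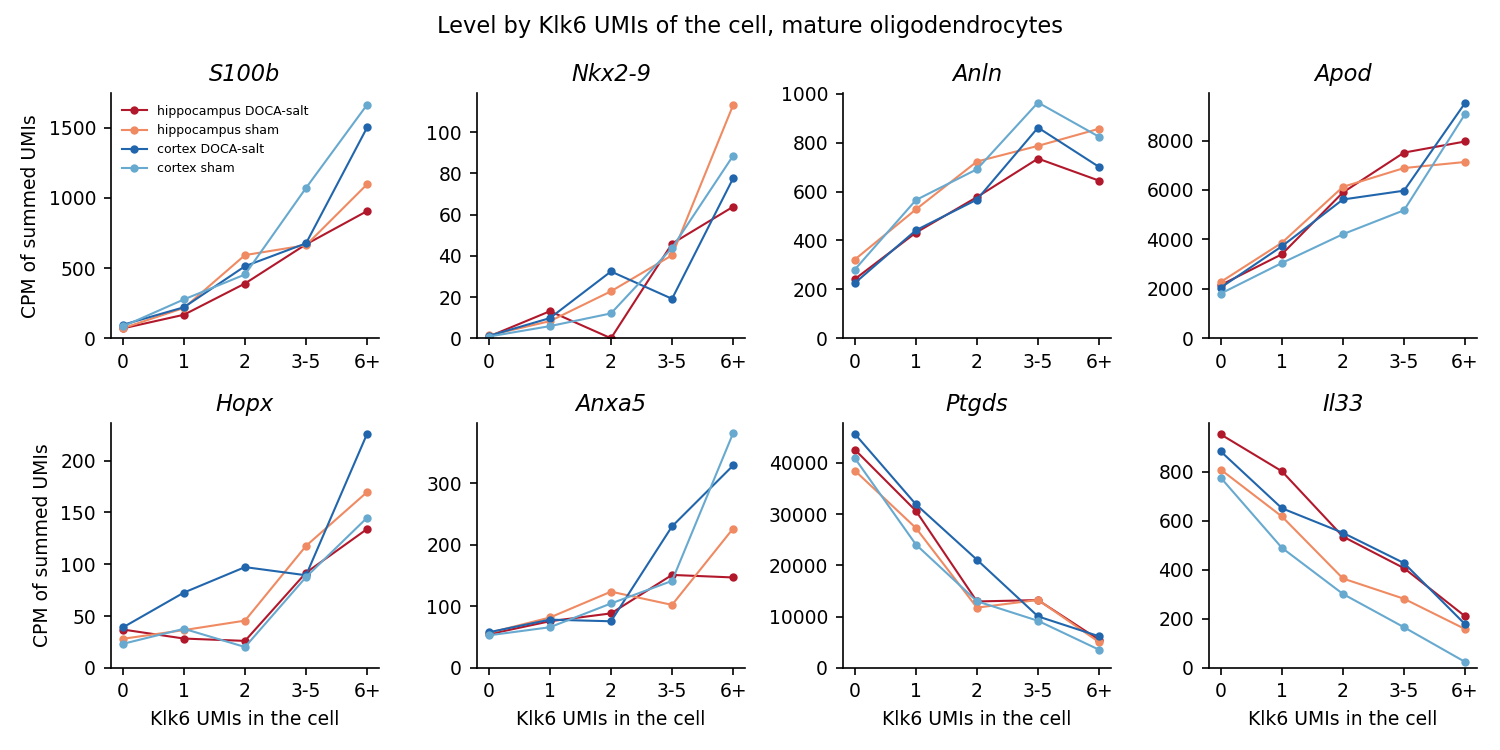
Summed level (CPM, y axis) of 8 genes in mature oligodendrocytes grouped by their Klk6 UMIs (x axis), a line for each of the 4 libraries. S100b, Nkx2-9, Apod, Hopx and Anxa5 are highest on average at 6 or more Klk6 UMIs, Anln levels off, and Ptgds and Il33 are lowest there.

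Klk6-0 cells were next split at the median of their Ptgds level, to set Klk6-positive cells against each of the resulting groups. Against Ptgds-high cells, 964 of 11816 genes (8.16%) were higher and 842 (7.13%) lower by edgeR. Against Ptgds-low cells, 1358 of 11992 (11.3%) were higher and 1912 (15.9%) lower, 27.3% in all. All 15 genes with the largest rises were called higher against either group. Their rises were larger against Ptgds-high cells: the log2 fold change of S100b was 4.80 against 2.86, that of Nkx2-9 was 8.11 against 4.75, that of Enpp6 was 4.17 against 1.98 and that of Hopx was 3.68 against 1.12. The Nkx2-9 value of 8.11 rests on a mean of only 0.157 CPM in Ptgds-high cells, against 2.02 CPM in Ptgds-low cells. Opalin fell against both, by 2.04 and 1.38, as did Cd9, by 1.64 and 0.89. Both comparisons share the Klk6-positive cells, and the difference between them was not tested. Of the 10 genes that fell most, 4 were lower against Ptgds-high cells and 10 against Ptgds-low cells, where RNA of blood cells and neurons was found as well.

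Some genes set Klk6-positive cells apart more in one tissue than in the other. An edgeR interaction test of state by tissue, over 2 hippocampus and 2 cortex libraries with treatments taken as replicates, called 38 of 13373 genes (0.284%). The log2 fold change of Klk6-positive over Klk6-0 cells was more positive in cortex for 19 of them and more negative for 19. DESeq2 called 5. Uchl1 was called by both: Klk6-positive cells held 108 and 141 CPM in cortex and 65.7 and 96.6 CPM in hippocampus, while Klk6-0 cells held 11.6 and 13.7 CPM in cortex and 26.9 and 37.5 CPM in hippocampus. The difference between states was larger in cortex by 1.94 ± 0.21 on the log2 scale. Like Uchl1, the neuron gene Reln was higher in Klk6-0 cells of hippocampus, at 20.1 and 27.7 CPM against 2.59 and 0.756 CPM in cortex. Ndnf and Meg3 were higher there as well. The 38 calls include genes of blood cells and astrocytes, such as Hbb-bs and Slc1a3. The interaction was not fitted with all oligodendrocyte markers asked of both states. The part of RNA of other cells in it was therefore not tested. Ifi27l2a, an interferon-inducible gene, was at 37.2 and 27.8 CPM in Klk6-positive cells of cortex against 9.17 and 9.15 CPM in those of hippocampus, and DESeq2 called it too. Opalin was lower in Klk6-positive cells of both tissues and more so in cortex, by a further 0.74 ± 0.11. Anxa5 was higher in both and more so in cortex, by 0.75 ± 0.14, at 249 and 238 CPM against 131 and 153 CPM in hippocampus, with Klk6-0 cells at 52.8 to 57.8 CPM in all 4 libraries. DESeq2 also called Opalin but not Anxa5. Klk6-positive cells of cortex held more Klk6 UMIs than those of hippocampus, and the interaction was not tested at equal Klk6 UMIs. Hcn2 differed between states by 0.46 ± 0.11 more in cortex.

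Levels in Klk6-positive cells of cortex and hippocampus were also set side by side within each treatment. At a ratio of 1.5, 597 (7.78%) of 7678 genes with at least 20 UMIs were higher and 596 (7.76%) lower in cortex in the sham libraries, and 587 (8.23%) and 652 (9.14%) of 7131 in the DOCA-salt libraries. S100b was 1.45 (1.31 to 1.59) and 1.71 (1.52 to 1.93) times as high in cortex in sham and DOCA-salt libraries, and Anxa5 1.55 (1.25 to 1.93) and 1.89 (1.46 to 2.47) times. Both genes rose with Klk6 UMIs, of which cortex cells held more, and the part of this in the ratios was not tested. At exactly 2 Klk6 UMIs Anxa5 stood at 104 CPM in cortex against 124 CPM in hippocampus in sham, and at 75.6 against 88.4 CPM in DOCA-salt libraries. At 3 to 5 and at 6 or more it was higher in cortex, the latter at 381 against 226 and 329 against 147 CPM. Fancc, a DNA repair gene, stood at 132 against 63.0 CPM in sham and at 108 against 50.5 CPM in DOCA-salt libraries. Ldhb, a lactate dehydrogenase gene, was at 508 against 340 and 533 against 339 CPM, and in Klk6-0 cells it was likewise 1.37 and 1.56 times as high in cortex. Abca8a, a lipid transporter gene, was at 14.5 against 44.7 and 23.1 against 59.6 CPM. Opalin stood at 0.527 (0.454 to 0.609) and 0.675 (0.582 to 0.781) times the hippocampus level, while its ratios in Klk6-0 cells were 1.04 and 0.943. After thinning, which left 20 and 52 Klk6-positive cells in the DOCA-salt libraries, its log2 ratio there was 0.06. Of 20 myelin genes, 1 was at least 1.5-fold lower in cortex in sham libraries, none in DOCA-salt libraries, and none was higher. Summed astrocyte markers were higher in both cortex libraries, and 7 and 6 of 7 measured were at least 1.5-fold higher there; their part in the tissue differences was not tested.

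DOCA-salt and sham were compared within Klk6-positive cells of each tissue by the ratio of CPM with an exact 95% interval of counting error. In hippocampus 765 of 7437 genes (10.3%) were at least 1.5-fold higher and 622 (8.36%) lower, and in cortex 686 of 7421 (9.24%) and 677 (9.12%). Sums in Klk6-positive cells were 654064, 983909, 780265 and 827039 UMIs, and at this depth a ratio of 1.5 lies within counting error for many genes with few UMIs. Of the 20 myelin genes none passed that ratio in either tissue and in either direction. The interaction of state and treatment called 3 genes (0.0224%) by edgeR and none by DESeq2, where 98 had an unadjusted p under 0.05. The log2 fold change of Klk6-positive over Klk6-0 cells was more positive after DOCA-salt for 2 (0.015%) and more negative for 1 (0.00748%). For most genes, therefore, no difference between the treatment ratios of both states was detectable at this depth.

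Serpina3n was higher after DOCA-salt in both tissues. Klk6-positive cells held 115 CPM after DOCA-salt and 12.2 CPM after sham in hippocampus (9.40 times, 5.08 to 19.0), and 187 against 14.5 CPM in cortex (12.9 times, 7.16 to 25.5). In Klk6-0 cells the ratios were 12.4 and 12.1, on lower levels. C4b, which has the near-identical copy C4a, was at 160 against 9.67 CPM in cortex (16.6 times, 8.15 to 39.2) and at 22.9 against 15.2 CPM in hippocampus (1.5 times, 0.685 to 3.30), where the interval includes 1. Its ratios in Klk6-0 cells were 2.87 and 2.27. Sema5a, a semaphorin gene of axon guidance, was at 41.3 against 8.13 CPM in hippocampus and 67.9 against 10.9 CPM in cortex. Those are ratios of 5.08 (2.24 to 12.9) and 6.24 (3.05 to 14.4), beside 1.84 and 1.49 in Klk6-0 cells. Whether the ratio of Sema5a differs between the states was tested by the interaction of state and treatment, and edgeR did not call it.

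The zinc finger gene Zfp771 was called by that interaction. It stood at 245 against 136 CPM in hippocampus (1.80 times, 1.42 to 2.28) and at 424 against 149 CPM in cortex (2.85 times, 2.31 to 3.54), beside ratios of 1.35 and 1.48 in Klk6-0 cells. The state difference was larger in DOCA-salt libraries by 0.71 ± 0.15 on the log2 scale (edgeR adjusted p = 0.0169). Fos went the other way. Its DOCA-salt to sham ratio was 1.57 (1.36 to 1.80) and 2.47 (2.12 to 2.90) in Klk6-positive cells against 2.28 and 4.53 in Klk6-0 cells, an interaction of -0.72 ± 0.12. The third gene is outside the naming rule. DESeq2 called neither Zfp771 nor Fos. Rabgef1, a regulator of endocytosis, was at 55.0 against 23.4 and 50 against 13.3 CPM, with ratios of 2.81 and 3.06 in Klk6-0 cells, but its log2 ratio in hippocampus was -0.02 among cells with none of the other-cell markers. Rida, Atp6v1c1 (a proton pump subunit gene) and Mif (a cytokine gene with processed copies in the genome) stood at 1.84 and 1.91, 1.87 and 1.87, and 1.59 and 1.49 times the sham level. Zfp804b reached 99.4 CPM (65 UMIs) in hippocampus DOCA-salt against 2 UMIs in sham, and 8 UMIs against none in cortex, and was likewise high in Klk6-0 cells of DOCA-salt libraries, at 72.8 and 44.2 CPM.

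Lower after DOCA-salt in both tissues were several genes that respond to corticosteroids. Zbtb16, a transcription factor gene, stood at 16.8 against 108 CPM in hippocampus (0.156 times, 0.0756 to 0.291) and at 8.97 against 90.7 CPM in cortex (0.0989 times, 0.0385 to 0.214). Sgk1 was at 295 against 673 CPM (0.439, 0.372 to 0.516) and 205 against 705 CPM (0.291, 0.243 to 0.347), and Klf9 at 145 against 274 and 101 against 201 CPM. Their ratios in Klk6-0 cells lay on the same side, at 0.207 and 0.155 for Zbtb16, 0.446 and 0.486 for Sgk1, and 0.616 and 0.562 for Klf9. Of the genes of the corticosteroid list, 6 of 16 measured were at least 1.5-fold lower and 1 higher in hippocampus, and 4 of 14 lower and 2 higher in cortex. Over all genes 8.36% were lower and 10.3% higher in hippocampus, and 9.12% and 9.24% in cortex. In Klk6-0 cells 6 of the list were lower and 2 higher in hippocampus, and 5 and 3 in cortex. Polr3e, an RNA polymerase III subunit gene, was at 0.383 and 0.458 times the sham level. Bcat1, an aminotransferase gene of branched-chain amino acids, was at 47.4 against 103 and 34.6 against 100.4 CPM. Its log2 ratio turned to 0.12 in hippocampus after thinning, which left 20 (DOCA-salt) and 26 (sham) Klk6-positive cells. In cortex it turned to 0.08 among cells with none of the other-cell markers, on 14 and 21 Klk6-positive cells. Cd59a, a complement inhibitor gene with the close copy Cd59b, was at 39.8 against 88.4 and 17.9 against 109 CPM, and its hippocampus log2 ratio was 0.14 among cells with none of the other-cell markers. Smox, a spermine oxidase gene, was at 58.1 against 150 CPM in hippocampus (0.386, 0.263 to 0.555) and 98.7 against 162 CPM in cortex.

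Immediate early genes were higher after DOCA-salt in Klk6-positive cells, with 7 of 16 measured at least 1.5-fold higher in hippocampus and 5 of 16 in cortex, and none lower, against 10.3% and 9.24% higher over all genes. In Klk6-0 cells 5 and 10 of them were. Dusp1 was at 231 against 120 CPM (1.93, 1.5 to 2.47) and 260 against 91.9 CPM (2.83, 2.16 to 3.74), and Btg2 at 93.3 against 50.8 and 97.4 against 61.7 CPM. Of the disease-associated list 4 of 12 were higher and 2 lower in hippocampus, and 5 and 1 in cortex. Over all genes 10.3% were higher and 8.36% lower in hippocampus, and 9.24% and 9.12% in cortex. In Klk6-0 cells 3 of the list were higher and 1 lower in hippocampus, and 3 and 2 in cortex. Il33, which was low in these cells, was at 398 against 263 CPM (1.51, 1.27 to 1.80) and 317 against 143 CPM (2.22, 1.77 to 2.79) after DOCA-salt, while its ratios in Klk6-0 cells were 1.18 and 1.14. Il33 was not among the genes that edgeR called for the interaction of state and treatment. The genes of the Klk6 state showed no common direction: none of 4 was at least 1.5-fold higher and 1 lower in hippocampus, and in cortex 1 of 4, Hopx, was higher, at 168 against 93.1 CPM. Levels of markers of other cells also differed between treatments. In hippocampus DOCA-salt 7 of 7 measured astrocyte markers were at least 1.5-fold higher in Klk6-positive cells, Slc1a2 at 159 against 52.9 CPM, and 5 of 5 blood markers. In cortex 1 of 7 and 2 of 3 were, and 2 of 2 mural cell markers. Summed choroid plexus markers went the other way in hippocampus, at 22.9 CPM in Klk6-positive cells of the DOCA-salt library against 3149 CPM in those of the sham library. Nearly all of it was Ttr (transthyretin), at 18.3 against 3106 CPM, a gene outside the naming rule that was chosen after its values were seen. Their part in the treatment ratios was not tested.

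**Figure D5:**
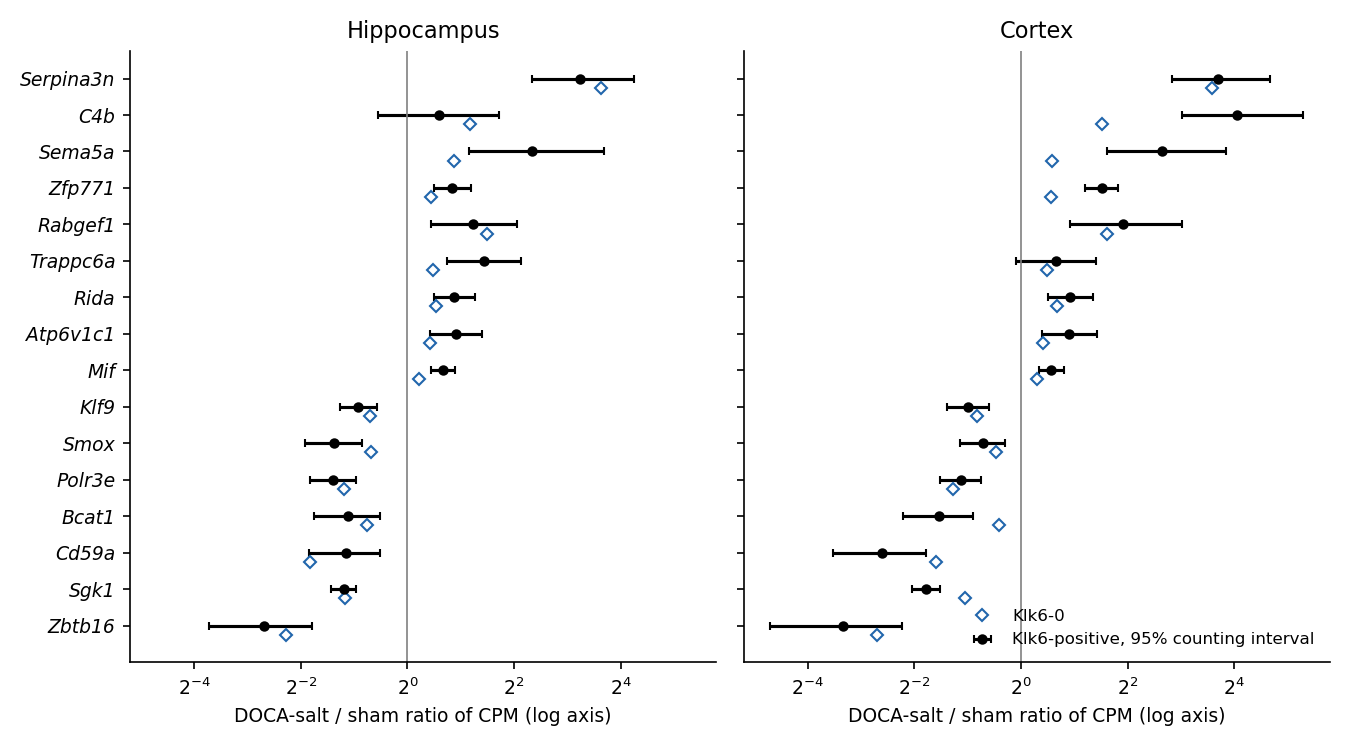
Ratio of CPM after DOCA-salt to CPM after sham (x axis, log scale) in Klk6-positive cells (black, with exact 95% counting intervals) and in Klk6-0 cells (blue diamonds) of hippocampus and cortex for 16 genes. Serpina3n lies at 9.40 and 12.9 and Zbtb16 at 0.156 and 0.0989; C4b is the gene whose 2 tissues differ most, at 1.5 and 16.6. Each ratio compares 1 library with 1 library.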

How the data were processed

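Single-cell libraries of 4 samples (hippocampus and sensory cortex, each DOCA-salt and sham) were prepared with the SeekOne DD 3′ kit, per the labels' protocols. The authors deposited UMI counts of 32285 genes per barcode. fastp, STAR, Subread and Seurat and the build GRCm38 are named in the submitters' processing notes; versions, strand setting and filters before deposit are not given in the sources used here. Libraries held 66824217 to 70173987 UMIs. Coordinates come from GENCODE annotation of GRCm38.

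The members, gene lists and tests were chosen with earlier results of these data known. UMIs were summed per library and state. States were compared with edgeR 4.0.16 (R 4.3.3; TMM, filterByExpr, quasi-likelihood test, library as block, Benjamini-Hochberg adjustment over all genes tested, threshold 0.05); the 4 libraries differ in tissue and treatment and served as replicates. Interactions of state with tissue or treatment used the same model. DESeq2 1.42.0 was an alternative. Treatments and tissues, with 1 library each, were compared by ratios of CPM among genes with at least 20 UMIs in the libraries compared, with exact 95% intervals (scipy 1.17.1); these and the exact binomial (Clopper-Pearson) intervals cover counting error only. Doublets were called with Scrublet (scanpy 1.11.5, expected rate 0.08) and kept. On simulated counts of 13043 genes the state test recovered 93 of 100 2-fold and 100 of 100 4-fold changes with 6 false calls. The interaction with tissue recovered 49 of 100 and 93 of 100 (13030 genes, 6 false calls), and that with treatment 46 of 100 and 90 of 100 (13035 genes, 8 false calls).

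Genes were named by a rule. For the states these were the 15 highest and 10 lowest log2 fold changes among called genes with the same sign in 4 libraries and at least 10 CPM in the higher state. For treatment and tissue they were the 4 highest and 4 lowest by the interval bound nearest to 1 in each comparison, and the 6 highest and 6 lowest in both tissues or treatments, with at least 50 UMIs. The 16 genes of the cell rule, mitochondrial, ribosomal protein, haemoglobin, immunoglobulin, Y-linked, Xist, Tsix, Ttr, S100a8, S100a9 and clone-named genes were left out, as were genes below 0.2 of their CPM in other cell types. Members of the gene lists could be named besides. Alternatives covered the Klk6 and marker thresholds, depth, doublets, low counts, the tool and each library left out.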

Additional observations from a re-analysis of the deposited data

Results flagged for a closer look

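Some differences between Klk6-positive and Klk6-0 cells were not of the same size in both tissues, by edgeR's interaction test with Benjamini-Hochberg adjustment. The difference, cortex minus hippocampus on the log2 scale, was 1.94 for Uchl1, 0.75 for Anxa5, 0.46 for Hcn2, 1.41 for C4b, 0.57 for Zfp771 and 0.98 for Bcat1. It was -0.74 for Opalin, -2.62 for Zfp804b and -0.99 for Srek1. Of these 9 genes DESeq2 called Uchl1 and Opalin. The part of RNA of other cells in these differences was not tested. C4b rests on the cortex DOCA-salt library, where Klk6-positive cells held 160 CPM against 9.67 to 22.9 CPM in the other 3 libraries.

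The state difference also depended on treatment for 2 genes by the same test. DOCA-salt minus sham was -0.72 for Fos and 0.71 for Zfp771 on the log2 scale, and DESeq2 called neither.

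A pair of genes went in opposite directions between libraries of Klk6-positive cells, and the difference was not tested. The log2 ratio of DOCA-salt to sham of Cdk11b was -0.73 in hippocampus and 0.79 in cortex. For Gstp1, which has the close copy Gstp2, the log2 ratio of cortex to hippocampus was -1.0 in sham and 0.23 in DOCA-salt libraries.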

How the results depend on the processing

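The number of genes called between Klk6-positive and Klk6-0 cells depended on the cells admitted and on depth. Lower calls numbered 834 with at least 7 markers, 837 with all 8, 695 by DESeq2 and 958 among genes with at least 20 UMIs. With none of the other-cell markers 249 were higher and 285 lower. With the Klk6 threshold applied to cells thinned to 2000 UMIs, 115 and 281 were. With cells thinned after the rule, 309 and 493 were. Against Ptgds-high cells the last 2 settings gave 137 and 267, and 339 and 369, and DESeq2 gave 633 and 422. Against Ptgds-low cells they gave 106 and 302, and 406 and 619, all 8 markers gave 826 and 715, and DESeq2 gave 827 and 960. Thinning before the Klk6 threshold left 1 call by tissue and 0 by treatment (233 with an unadjusted p under 0.05 by edgeR). DESeq2 made 5 and 0 (98 with an unadjusted p under 0.05). The settings of all 8 markers, thinning after the rule, Klk6-0 cells drawn to the same depth and at least 20 UMIs were chosen after seeing the data.

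Shares of Klk6-positive cells in hippocampus DOCA-salt and sham and cortex DOCA-salt and sham were 6.09%, 6.21%, 8.12% and 8.25% at 1 Klk6 UMI, 0.891%, 1.06%, 2.39% and 2.11% at 4, and 0.654%, 0.559%, 2.20% and 1.76% after thinning. With none of the other-cell markers they were 1.51% in hippocampus sham, 2.13% in cortex DOCA-salt and 2.94% in cortex sham. The share ratio of DOCA-salt to sham in cortex was then 0.726. Cortex over hippocampus was 1.33 at 1 UMI and 3.14 after thinning in sham, and 2.69 at 4 UMIs, 1.16 with none of the other-cell markers and 3.37 after thinning in DOCA-salt libraries.

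The percent of genes at least 1.5-fold apart fell with a minimum of 50 UMIs, to 4.82 higher and 4.40 lower for DOCA-salt in hippocampus, 3.99 and 5.33 in cortex, 3.49 and 2.98 for cortex over hippocampus in sham, and 3.42 and 4.75 in DOCA-salt libraries. In hippocampus the lower percent was 5.51 at 1 Klk6 UMI, 14.1 with none of the other-cell markers and 16.1 after thinning. For cortex over hippocampus, thinning gave 14.9 higher and 12.1 lower in sham and 16.1 higher in DOCA-salt libraries, and none of the other-cell markers gave 12.1 lower in sham.

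Signs turned in few cases, and the cause was not tested. On the log2 scale Ngp was 0.49 with at least 7 markers and 0.46 with all 8. Car2 was -0.019 and Errfi1 -0.23 with the Klk6 threshold on thinned cells. C4b was -0.19 with none of the other-cell markers. With 1 library left out, C4b ran from -0.26 (cortex DOCA-salt) to 1.09 (hippocampus DOCA-salt). With none of the other-cell markers the log2 ratio of DOCA-salt to sham was 0.085 for Bcat1 in cortex, and 0.14 for Cd59a and -0.016 for Rabgef1 in hippocampus, and that of cortex to hippocampus was -0.25 for Hist1h1e in sham. After thinning, Bcat1 was 0.12 in hippocampus, and cortex over hippocampus in DOCA-salt libraries was 0.058 for Opalin, -0.38 for Rnd2, 0.037 for Spock1 and 0.62 for Srek1, with Srek1 at 1.21 in sham. Of 84 genes named from the state comparison, 54 kept direction and call with the Klk6 threshold on thinned cells. With thinning after the rule 70 did, and by DESeq2 79. The comparison of states is paired within each library, which is its block. Treatments and tissues have 1 library each and the labels give no replicate numbers, so no pairing by replicate number was made across groups.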
